A study of Mus musculus with 6 samples.

Results

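Tudor domain proteins of germ granules were followed here through the mRNA of 9 mouse genes: Tdrd1, Tdrd5, Tdrd6, Tdrd7, Tdrd9, Tdrd12, Tdrkh, Rnf17 and Stk31. They were chosen by symbol from the family's known members, with earlier results of these data known. All 9 matched an identifier among the 21310 genes of the deposited table of counts. The measurements came from pachytene spermatocytes, male germ cells in mid meiosis, when homologous chromosomes are fully paired, taken from mouse testes. The wild-type (WT) group and the Alkbh1-/- group each had 1 mRNA library. The Alkbh1-/- mice carried a targeted deletion of exon 6 of Alkbh1, a member of the AlkB dioxygenase family, on a C57/BL6 background reached by backcrossing. The sources used here do not state ages, how many animals stand behind each library or whether animals were pooled. The series also holds 4 small RNA libraries (2 WT, 1 Alkbh1-/- and 1 TzfpGTi/GTi, a gene trap of Tzfp), whose tables list piRNA clusters rather than genes and were not used here. With 1 library per genotype there was no replicate error and no test, and genotype, animal and preparation cannot be told apart.

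Tudor domains are small folds that bind methylated arginines or lysines. In germ cells the PIWI proteins carry symmetrically dimethylated arginines near their N termini, and multi-Tudor proteins dock on these marks and gather PIWI proteins, helicases and RNA into germ granules. Such granules are the cement between mitochondria of spermatocytes and the chromatoid body of spermatids, and they are known as places where piRNAs, the small RNAs bound by PIWI proteins, are made and used.

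The promoters of 7 of the 9 genes (all but Tdrd6 and Rnf17) were in the RefSeq promoter table for GRCm38.p6, and the 250 bases before the most upstream listed start were read on the gene's strand, 5′ to 3′. Of these windows 4 are shown because they hold the E-box CACGTG, the least common among promoters of the motifs found in any member, or the repeated CCAAT box. In the first 3, capitals mark CACGTG. In Tdrkh they mark the CCAAT box, which lies there on the opposite strand and so reads ATTGG.
Tdrd1 (chr19:56825959-56826208, plus strand): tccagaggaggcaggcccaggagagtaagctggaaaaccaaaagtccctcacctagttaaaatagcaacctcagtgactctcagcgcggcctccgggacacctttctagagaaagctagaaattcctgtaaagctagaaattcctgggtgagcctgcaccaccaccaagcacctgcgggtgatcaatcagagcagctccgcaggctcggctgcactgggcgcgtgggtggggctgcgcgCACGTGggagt
Tdrd9 (chr12:111971309-111971558, plus strand): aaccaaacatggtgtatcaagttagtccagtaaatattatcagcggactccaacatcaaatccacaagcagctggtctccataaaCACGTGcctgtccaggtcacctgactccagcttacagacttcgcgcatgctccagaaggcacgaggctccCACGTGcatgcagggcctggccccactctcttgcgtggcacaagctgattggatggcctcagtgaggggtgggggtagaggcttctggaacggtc
Stk31 (chr6:49395289-49395538, plus strand): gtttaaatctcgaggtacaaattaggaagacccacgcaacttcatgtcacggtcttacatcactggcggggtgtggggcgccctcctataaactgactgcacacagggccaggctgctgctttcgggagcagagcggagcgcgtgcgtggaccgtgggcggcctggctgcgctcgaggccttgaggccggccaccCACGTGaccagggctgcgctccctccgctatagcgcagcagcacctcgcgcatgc
Tdrkh (chr3:94412994-94413243, plus strand): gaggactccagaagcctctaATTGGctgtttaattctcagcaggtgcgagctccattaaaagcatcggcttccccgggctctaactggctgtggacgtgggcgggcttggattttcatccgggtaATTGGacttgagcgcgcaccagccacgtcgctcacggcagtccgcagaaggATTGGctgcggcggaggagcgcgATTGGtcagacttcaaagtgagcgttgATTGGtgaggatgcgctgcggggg

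CACGTG, a palindrome that reads the same on both strands, was present in 3 of the 7 windows, against 6.04% of 27025 mouse promoters of the same length. In Tdrd1 it ended 5 bases before the start and in Stk31 it ended 49 bases before the start. Tdrd9 held 2 copies, the upstream one ending 159 bases before the start. CCAAT, searched on both strands, was found 5 times in Tdrkh. It was found once more among the members, in Tdrd9. At least 1 copy was thus present in 2 of the 7 windows, against 34.5% of promoters. At least 5 copies were present in 0.233% of promoters, but that cutoff was taken from the count in Tdrkh itself and is a description only. The MYB core AACNG, also searched on both strands, was present in 6 of the 7 windows, all but that of Tdrd1, and in 74.2% of all promoters. Its longer form AACNGTT was in 0 of 7 windows and in 3.69% of promoters. The GC box GGGCGG was in 3 of 7 (33.0% of promoters) and TATAAA in 2 of 7 (13% of promoters), counting both strands. GC content ran from 47.6% in Tdrd7 to 75.2% in Tdrd5, around a median of 52% for all promoters, and Tdrd5 held 40 CpG dinucleotides where the median promoter held 6. The CACGTG search was added after the sequences were seen. These matches describe letters only, and no binding was measured in these cells.

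Over all genes, counts summed to 8222671 for the WT library and 10229260 for the Alkbh1-/- library. Counts were scaled by edgeR's trimmed mean of M values (TMM) and given as CPM (counts relative to the scaled library total), with 95% exact Poisson intervals for levels and 95% exact Clopper-Pearson intervals for the ratio of Alkbh1-/- to WT. Such intervals hold counting error alone and take each count as independent. Amplified copies of a molecule were not marked, and how reads were counted is not stated, so the intervals may be too narrow. The targeted gene, Alkbh1, was at 21.0 CPM (WT) and 20.2 CPM (Alkbh1-/-), a ratio of 0.962 (0.782 to 1.18). The table gives a single count for the gene, not counts per exon, so it does not check the deletion. Genes expected in this cell type were present: 18 of 20 listed genes of meiotic prophase passed a floor of 5 CPM in at least 1 library. Markers of other cells were present too, and unequally. The 11 Sertoli cell markers in the table summed to 2728 CPM in WT and 1352 CPM in Alkbh1-/-, with Sox9 at 47.1 and 13.4 CPM. The 15 spermatid markers summed to 1713 and 2286 CPM, and the 7 Leydig cell markers to 73.8 and 149 CPM. Of all listed markers, only Hba-a1 was at 0 in a library (WT). In such bulk samples, fewer cells of a type and less RNA per cell cannot be told apart.

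All 9 members were well above the floor in both libraries, from 374 counts for Tdrkh in WT to 19513 for Tdrd6 in Alkbh1-/-. None was 1.5-fold higher or lower. Of the 12189 genes past the floor, 8.06% exceeded 1.5-fold upward and 8.79% downward, and among the 4501 genes with a mean CPM at or above that of Tdrkh these shares were 3.22% and 4%. At that background, 0 of 9 is not a result about the family. The summed level of the 9 genes was 4214 CPM (WT) and 4109 CPM (Alkbh1-/-), a ratio of 0.975 (0.961 to 0.989) that included 1 with library totals (0.996, 0.982 to 1.01) or upper-quartile factors (0.989, 0.975 to 1.004). Within that sum, 5 members were higher in Alkbh1-/- beyond counting error, while Tdrd6 and, except with library totals, Stk31 were lower. Of all genes past the floor, 23.7% had a ratio interval above 1 and 26.8% had one below 1. Without Tdrd6 the sum was 2029 and 2221 CPM (ratio 1.09, interval 1.07 to 1.12).

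**Figure D1:**
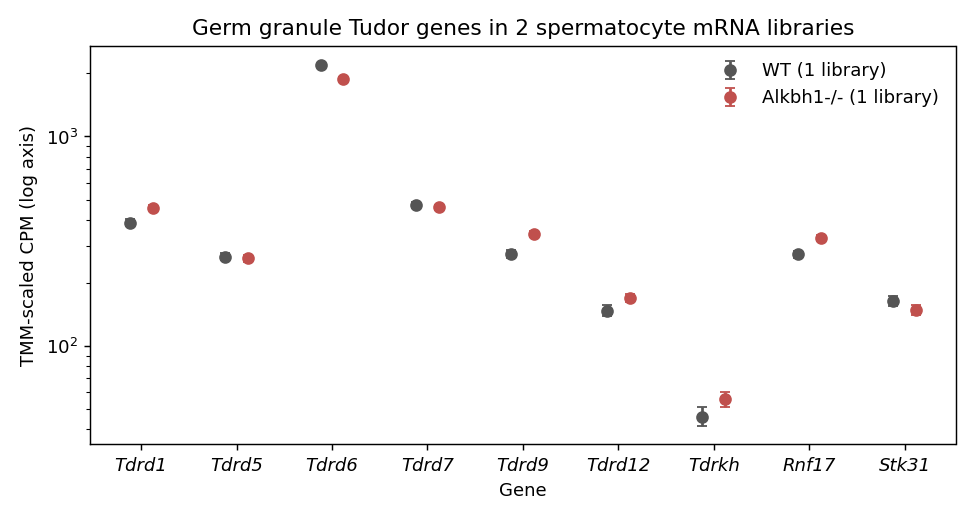
TMM-scaled CPM of each gene (log axis) in the WT library (grey) and the Alkbh1-/- library (red), with 95% exact Poisson intervals. Tdrd1, Tdrd9, Tdrd12, Tdrkh and Rnf17 lie higher in Alkbh1-/-, while Tdrd6 is at 2185 CPM in WT and 1887 CPM in Alkbh1-/-.

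Tdrd9 and Tdrd12 carry a helicase domain beside their Tudor domains. Tdrd9, which works with PIWIL4 in silencing transposons in fetal germ cells, had 2232 counts in WT and 3546 in Alkbh1-/-, or 274 CPM (263 to 286) and 343 CPM (332 to 354). The intervals did not overlap, and its ratio of 1.25 (1.19 to 1.32) was the highest of the 9. Tdrd12, which binds PIWIL2 and TDRD1 and is needed for secondary piRNA production, had 148 CPM (139 to 156) in WT and 169 CPM (161 to 177) in Alkbh1-/-. Its ratio was 1.15 (1.07 to 1.24).

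Tdrd1 and Tdrkh act at the granules beside mitochondria. Tdrd1, a scaffold with several Tudor domains that binds PIWIL2, had 388 CPM (374 to 402) in WT and 458 CPM (445 to 471) in Alkbh1-/-. The higher library was again Alkbh1-/-, at a ratio of 1.18 (1.13 to 1.24). Tdrkh, a mitochondrial protein with KH domains that brings PIWI-bound precursors to the trimming enzyme PNLDC1, had 374 counts in WT and 575 in Alkbh1-/-, or 46.0 CPM (41.4 to 50.9) and 55.6 CPM (51.2 to 60.4). Its ratio of 1.21 (1.06 to 1.38) had the widest interval of the family. In RefSeq on GRCm38.p6 Tdrkh overlaps Oaz3, which encodes a testis-specific antizyme and was counted at 149 CPM (WT) and 221 CPM (Alkbh1-/-), a ratio of 1.48 (1.38 to 1.59). Whether the authors' counting used strand is not given, so the value of Tdrkh is uncertain, and the part of Oaz3 reads in it was not tested. No other member overlapped a gene that was matched by symbol in the table. Among genes not matched, Tdrd9 overlaps the protein-coding gene Rd3l and a noncoding RNA gene. Tdrd7, Tdrd12, Rnf17 and Stk31 overlap noncoding RNA genes or pseudogenes. Reads of these genes within the members' counts were not tested.

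Rnf17, a RING finger protein with Tudor domains that restrains piRNA amplification in meiotic cells, had 2226 counts in WT and 3376 in Alkbh1-/-. These were 274 CPM (262 to 285) and 327 CPM (316 to 338), a ratio of 1.19 (1.13 to 1.26). Stk31, a testis-enriched protein that joins a Tudor domain to a kinase-like domain, went the other way, with 163 CPM (155 to 173) in WT and 149 CPM (141 to 156) in Alkbh1-/-. Its level intervals overlapped slightly, and its ratio was 0.909 (0.844 to 0.979). With library totals the ratio was 0.929 and its interval reached 1 (0.863 to 1.00045).

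Tdrd5, Tdrd6 and Tdrd7 are known for the chromatoid body. Tdrd6, a large protein with many Tudor domains that organizes this body in spermatids, had 17780 counts in WT and 19513 in Alkbh1-/-. These were 2185 CPM (2153 to 2218) and 1887 CPM (1861 to 1914), and the ratio of 0.864 (0.846 to 0.881) was the lowest of the family, with the narrowest interval. Tdrd7, which joins LOTUS and Tudor domains and takes part in remodelling of the body, had 469 CPM (454 to 484) in WT and 459 CPM (446 to 472) in Alkbh1-/-. Tdrd5, also with a LOTUS domain and needed for assembly of the body and for pachytene piRNAs, had 267 CPM (256 to 279) and 262 CPM (252 to 272). The libraries could not be told apart by counting error for either gene, with ratios of 0.978 (0.937 to 1.02) for Tdrd7 and 0.981 (0.927 to 1.04) for Tdrd5. With library totals in place of TMM, the log2 ratio of Tdrd5 changed sign, from -0.028 to 0.0029.

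**Figure D2:**
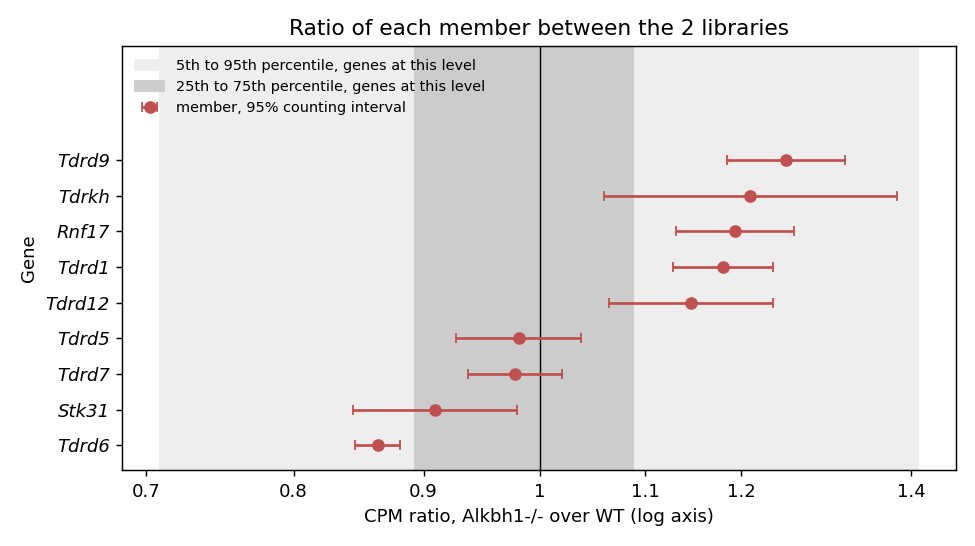
CPM ratio of Alkbh1-/- over WT for each gene (log axis) with 95% exact counting intervals; the dark and light bands hold the 25th to 75th and the 5th to 95th percentiles of the 4501 genes with a mean CPM at or above that of Tdrkh. The 5 genes from Tdrd12 (1.15) to Tdrd9 (1.25) lie to the right of the dark band, and Tdrd6 (0.864) lies to its left.

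On the scale log2((Alkbh1-/- CPM + 1)/(WT CPM + 1)) the members' median was 0.20, beside -0.017 for all genes past the floor. It was -0.028 for the 4501 genes with a mean CPM at or above that of Tdrkh, which were not matched in level to each member. For those 4501 genes the 25th and 75th percentiles were -0.16 and 0.12, and the 5th and 95th were -0.50 and 0.49. The 5 members from Tdrd12 to Tdrd9 (0.20 to 0.32) lay above the 75th percentile and Tdrd6 (-0.21) lay below the 25th, while every member stayed between the 5th and the 95th. The ratio's counting interval lay above 1 for 5 of 9 members, against 25.6% of those 4501 genes. It lay below 1 for 2 of 9 (Tdrd6, and Stk31 except with library totals), against 33.5%. Over all genes past the floor these shares were 23.7% and 26.8%. An interval that leaves out 1 says that these libraries differ beyond counting error, and it carries no information on animals of the genotype. The median also rested on where the members split: without Tdrkh, the gene that overlaps Oaz3, it was 0.084.

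Counts of 2 members within the same library need no scaling, and their quotient was compared between the libraries for all 36 pairs. For every 100 Tdrd6 counts there were 12.6 Tdrd9 counts in WT and 18.2 in Alkbh1-/-, a 1.45-fold difference (95% Wald interval for counting error, 1.37 to 1.53). This was the largest difference of the 36 pairs, because Tdrd9 had the highest ratio of the members and Tdrd6 the lowest. Tdrd1 went from 17.7 to 24.3 per 100 Tdrd6 counts (1.37-fold, 1.301 to 1.436), and Rnf17 from 12.5 to 17.3 (1.38-fold, 1.31 to 1.46). Stk31 was the exception, at 7.48 and 7.88 per 100 Tdrd6 counts (1.05-fold, 0.976 to 1.14).

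The same pairs show how the 9 genes fell apart. When the 5 members with a ratio interval above 1 (Tdrd1, Tdrd9, Tdrd12, Tdrkh and Rnf17) were set against the other 4, all 20 pairs differed between the libraries beyond counting error, by 1.17-fold to 1.45-fold. Among the 10 pairs inside the group of 5, no interval left out 1, and the largest difference was 1.09-fold. Of the 6 pairs inside the group of 4, the interval left out 1 in 2, those of Tdrd6 with Tdrd5 and with Tdrd7. This division was drawn from the values themselves, which largely fixes the result for the 20 pairs, and is a description only. The 10 pairs inside the group of 5 restate how close those members' ratios lay, from 1.15 (Tdrd12) to 1.25 (Tdrd9). All pairs reuse the counts of the same 9 genes and so are not independent. Whether the group of 5 changed together was not tested. Of the 7 genes with a promoter window, CACGTG was found in Tdrd1 and Tdrd9 of the higher group and in Stk31 of the other. CCAAT was found in Tdrd9 and Tdrkh of the higher group, and TATAAA in Tdrd7 and Stk31 of the other, in so few windows that nothing is read from it.

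Tdrd6 made up 51.9% of all counts in the 9 genes in WT (95% Wilson interval 51.3 to 52.4) and 45.9% in Alkbh1-/- (45.5 to 46.4). The share of Tdrd1 was 9.20% (8.90 to 9.51) and 11.1% (10.8 to 11.4), and that of Tdrd9 was 6.51% (6.25 to 6.78) and 8.35% (8.09 to 8.61). Tdrd7 kept nearly the same share, 11.1% in WT and 11.2% in Alkbh1-/-. Transcript lengths were not used here, and a longer mRNA gives more counts, so these shares do not rank the genes by number of transcripts.

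**Figure D3:**
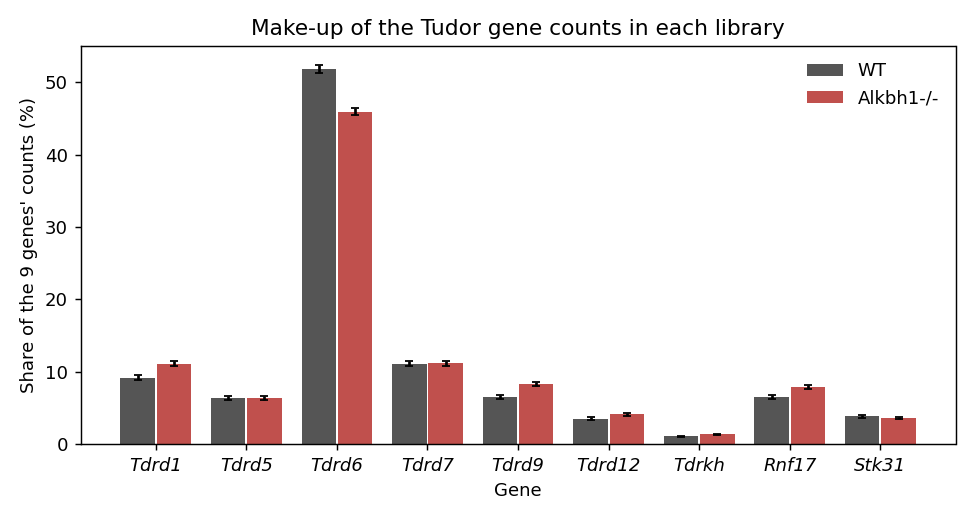
Share of the 9 genes' summed counts held by each gene (%) in WT (grey bars) and Alkbh1-/- (red bars), with 95% Wilson intervals. Tdrd6 holds 51.9% in WT and 45.9% in Alkbh1-/-, and the shares of Tdrd1, Tdrd9, Tdrd12, Tdrkh and Rnf17 are larger in Alkbh1-/-.

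The proteins that meet the Tudor family in germ granules were read from a list of 19 piRNA pathway genes, of which 17 passed the floor. At 1.5-fold, 3 of these were higher in the Alkbh1-/- library and 0 were lower, against 8.06% and 8.79% of all genes past the floor. The median log2 ratio of the 17 was 0.12. Their highest member was Kif17, a kinesin of the chromatoid body (101 and 183 CPM in WT and Alkbh1-/-, ratio 1.81, interval 1.66 to 1.96). Pnldc1, the trimming enzyme that TDRKH serves, had 11.9 and 20.1 CPM (1.69, 1.32 to 2.17), and Mov10l1, a helicase that starts piRNA processing, had 120 and 186 CPM (1.55, 1.44 to 1.68). The PIWI genes that the Tudor proteins bind lay nearer to 1: Piwil1 had a ratio of 1.06 (1.03 to 1.09) and Piwil2 had 1.09 (1.03 to 1.14). Piwil4, the partner of TDRD9, had 4 counts in WT and 3 in Alkbh1-/-, too few for a comparison, beside the 2232 and 3546 counts of Tdrd9. Mybl1, the transcription factor known to drive many piRNA pathway genes at pachytene, had 138 and 130 CPM (0.944, 0.871 to 1.02). The vasa helicase gene Ddx4 had a ratio of 1.08 (1.04 to 1.12), and Mael, a germ granule protein, had 0.916 (0.891 to 0.942).

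Enzymes that methylate arginines and their cofactors made up a list of 8 genes, of which 7 (Prmt5, Prmt7, Prmt9 and the cofactors or adaptors Clns1a, Coprs, Riok1 and Wdr77) were in the table and past the floor, with 0 past 1.5-fold and a median of 0.072. Prmt5, which makes symmetric dimethylarginine, was at 74.1 and 78.0 CPM in WT and Alkbh1-/-, a ratio of 1.05 (0.945 to 1.17). Genes of RNA decay, some of whose products are found in the chromatoid body, had a median of -0.0076 over 8 genes, with 0 past 1.5-fold, and Upf1 had a ratio of 0.981 (0.934 to 1.03).

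Tudor domain genes that act outside germ granules, or mainly so, spread more widely than the members. The table held 21 such genes. Of the 20 past the floor, 2 were at least 1.5-fold higher and 1 lower, with a median of -0.039 and a range from -0.67 to 0.89, against -0.21 to 0.32 in the members. Of all genes past the floor, 8.06% were that much higher and 8.79% that much lower. Sgf29, a reader of histone methylation in the SAGA complex, was at 34.2 and 64.1 CPM in WT and Alkbh1-/-, a ratio of 1.88 (1.63 to 2.17). Akap1, an anchoring protein on the mitochondrial surface, had 102 and 159 CPM (1.57, 1.44 to 1.71), and the histone demethylase gene Kdm4b had 47.6 and 29.5 CPM (0.620, 0.532 to 0.722). The lists differ in level, and the difference between them was not tested.

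**Figure D4:**
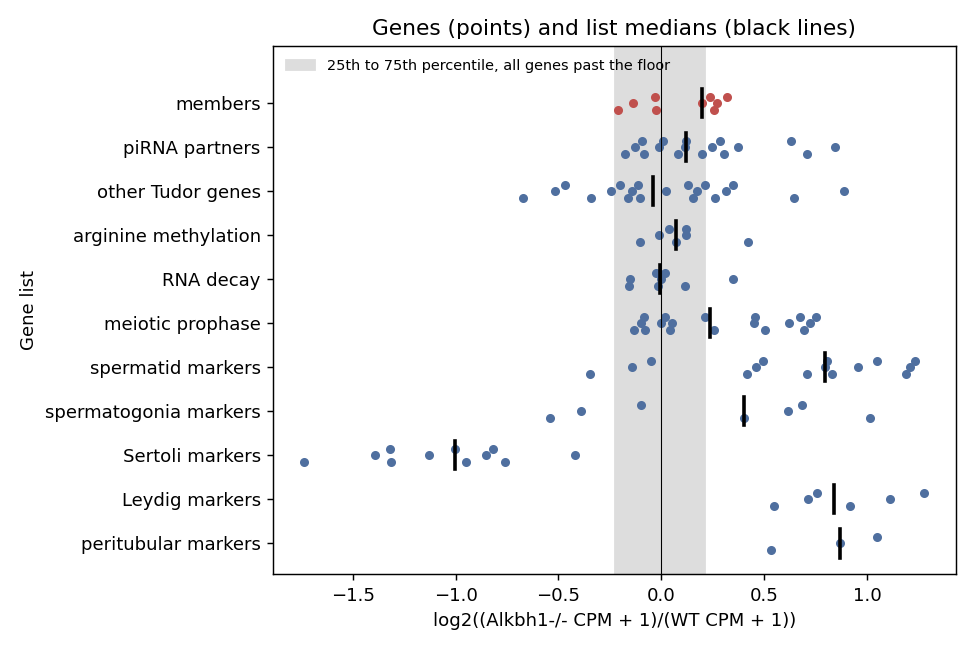
Each point is a gene past the floor of 5 CPM, at its log2((Alkbh1-/- CPM + 1)/(WT CPM + 1)), by gene list; black lines are list medians and the grey band holds the 25th to 75th percentiles of all 12189 genes past the floor. The members (red) lie between -0.21 and 0.32, to the right of the Sertoli cell markers (-1.73 to -0.42) and within the range of the spermatid markers (-0.35 to 1.23, median 0.79).

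Lists of other stages and cells held genes with larger differences between the libraries than any of the 9 members. Over all genes past the floor, 8.06% were at least 1.5-fold higher and 8.79% lower. Of 15 spermatid markers, 9 exceeded 1.5-fold upward and 0 downward (median 0.79). Their log2 ratios were above 0 in 12 and below 0 in 3. Those 3 were Tnp1 (ratio 0.785, 0.735 to 0.837), Tnp2 (0.907, 0.859 to 0.958) and Prm1 (0.964, 0.897 to 1.04). Of 11 Sertoli cell markers 10 were lower and 0 higher (range -1.73 to -0.42). Of 6 Leydig cell markers past the floor, 5 were higher and 0 lower, and of 7 spermatogonial markers 3 were higher and 0 lower. The 10 spermatogonial markers in the table summed to 123 CPM in each library. The most abundant of them, Uchl1 and Dmrt1, had ratios of 0.681 (0.589 to 0.788) and 0.755 (0.629 to 0.906). The meiotic prophase list, the nearest in stage to the cells sampled, had 5 of 18 higher and 0 lower with a median of 0.24. It also held genes near a ratio of 1 and genes well above it, with its most counted gene Hspa2 at a ratio of 0.999 (0.980 to 1.02) and the meiotic cohesin gene Rec8 at 1.70 (1.48 to 1.96). When the libraries were scaled to equal summed counts of that list, Tdrd9 was at a log2 ratio of 0.30 and Tdrd6 at -0.24. The part of these other cells in the members' ratios was not tested.

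By its levels in these 2 libraries, the gene nearest to Tdrd1 was Ttll13, with 394 CPM in WT and 460 CPM in Alkbh1-/- (distance 0.024 in log2(CPM + 1), over 11794 genes). For Tdrd7 it was Dot1l, with 461 and 462 CPM (distance 0.026). For Tdrd6 it was Tuba3a, with 1990 and 1992 CPM (distance 0.16), and no gene came within 0.1. Over so few libraries such a match is loose, and 44 genes lay within 0.1 of Tdrd7.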

How the data were processed

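Poly(A)-selected RNA above 200 nt (1 µg for WT, 1.6 µg for Alkbh1-/-) was amplified with 15 PCR cycles and read as 75 bp paired ends, per the labels' protocols. The authors deposited whole-number counts per Ensembl gene, with no normalization. Per the submitters' processing notes, the tools were CASAVA 1.3, Novoalign, TopHat and bedtools on build mm9; what each did, and how reads were counted, is not stated in the sources used. Symbols matched 19848 of 21310 identifiers (93.1%). Scaling used edgeR 4.0.16 (TMM) and, as an alternative, DESeq2 1.42.0 size factors, in R 4.3.3. Python 3.11.15, numpy 2.4.6, pandas 2.3.3 and scipy 1.17.1 gave intervals. They were tried on simulated counts with counting error alone, the model they assume, so that check says nothing on other sources of error. A pseudocount of 1 CPM and a floor of 5 CPM in at least 1 library were used for log2 ratios. Other scalings, pseudocounts (0 and 5 CPM) and floors (0, 1 and 20 CPM) were tried.

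The members and all gene lists were chosen with earlier results of these data known. Genes named from a list were drawn from its 3 most abundant past the floor and up to 3 furthest past 1.5-fold. Not all of these are printed, and those left out were not chosen by a rule. A few further partners of the members (Piwil2, Piwil4 and Mybl1), the spermatid markers Tnp1 and Prm1 and the overlapping gene Oaz3 were named after their values were seen. Gene order by level per length, planned as an alternative, was not run because transcript lengths were not used here. RefSeq sequences and gene overlaps are on GRCm38.p6. Markers without a matched identifier were not analysed here.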

Additional observations from a re-analysis of the deposited data

How the results depend on the processing

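Depth limited the members little: counting error alone gave Tdrd6 an interval of 0.846 to 0.881 and Tdrkh, with fewest counts, 1.06 to 1.38, and the absence of replicates is the limit that no setting changes. No paired analysis was possible because each genotype had 1 mRNA library. Under 5 other scalings and 2 other pseudocounts, 8 of the 9 members kept the sign of their log2 ratio. Tdrd5 was the exception (-0.052 to 0.0029), and Tdrd7 came close (-0.057 to -0.0019). Over the 6 scalings the counting interval lay above, below or across 1 as with TMM for every member but Stk31, whose interval reached 1.00045 with library totals, and the interval of the summed ratio included 1 with library totals (0.996) and upper-quartile factors (0.989). With library totals, Tdrd6 was at -0.18 in place of -0.21. No member reached 1.5-fold in any setting. The members' median was 0.20 and ranged from 0.17 (scaled to the meiotic prophase list) to 0.23 (library totals). It was 0.22 without Tdrd6 and 0.084 without Tdrkh, both chosen after seeing the data. The number of all genes at least 1.5-fold higher, 982, became 560 with a pseudocount of 5 CPM, 1625 with a floor of 1 CPM, 1749 with no floor and 446 with a floor of 20 CPM, where 583 were lower in place of 1071.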
